A study of Mus musculus with 6 samples.

Results

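The genes described here are the kainate receptor subunits Grik1, Grik2, Grik3, Grik4 and Grik5 and the metabotropic glutamate receptors Grm2, Grm3, Grm4, Grm5 and Grm7, 10 of 45470 named genes, taken by symbol. Their messenger RNA was measured by RNA sequencing, after depletion of ribosomal RNA, in homogenised prefrontal cortex taken at postnatal week 8. The 3 duplication libraries came from mice heterozygous for a duplication of the segment of mouse chromosome 7 that matches human 16p11.2, and the 3 control libraries were labelled wild type. Both groups share the C57BL/6 background: the line was made on a C57BL/6N:129Sv hybrid and then bred back to C57BL/6 for 10 generations. The labels do not tie libraries to separate animals or litters, and a p-value here can therefore reflect only how these samples varied, technical variation included.

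Kainate receptors are glutamate-gated ion channels assembled from subunits of this family. The products of Grik1, Grik2 and Grik3 can form channels of their own, whereas those of Grik4 and Grik5 bind kainate with high affinity and need a partner from the first set. They act on both sides of cortical synapses, tuning transmitter release and the firing of interneurons and pyramidal cells. Metabotropic receptors are coupled to G proteins. Group I, which holds Grm5, signals through Gq to phospholipase C at the edge of the postsynaptic density, group II (Grm2, Grm3) and group III (Grm4, Grm6, Grm7, Grm8) signal through Gi/o and largely restrain glutamate release, and Grm3 is also a receptor of astrocytes.

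Before the receptors, the libraries themselves differed in ways that touch the results. Total gene counts were 12988457 to 21872271 per library. The deposited gene names lag behind their counts in 6 steps, so each name was matched to its counts by that offset, and no receptor lies closer than 167 lines to a step. Under the deposited names Grm5 had 0 counts and Grik3 had 19 in wild type, and after re-alignment they had 16386 and 5827. Cortical markers were present: the vesicular glutamate transporter Slc17a7 was at 1047 CPM (counts scaled to equal library sizes, as edgeR's counts-per-million) and the kinase Camk2a at 930.4 CPM in wild type, with 0 of 7 excitatory markers at 0. Duplicated interval genes, 24 tested, had a median fold over the wild type mean of 1.496 in duplication replicate 1, 2.02 in replicate 2 and 1.54 in replicate 3, in the direction of the labels. The first principal component of all genes held 45.5% of the variance. On it wild type replicate 2 scored 4.04, far from the other wild type libraries (-27.2 and -26.7) and near the duplication libraries (7.23 to 24.8). Values are therefore given also without wild type replicate 2.

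The receptor genes lie on 8 chromosomes of mm10, none inside the duplicated segment. On chromosome 7, which carries that segment, are Grik5 (25009849 to 25072346) and Grm5 (87584168 to 88134907). Elsewhere are Grik1 (chromosome 16, 87895900 to 88290265), Grik2 (chromosome 10, 49094833 to 49788766), Grik3 (chromosome 4, 125490700 to 125714173) and Grik4 (chromosome 9, 42518135 to 42944493). Among the metabotropic genes, Grm2 lies on chromosome 9 (106643095 to 106656082), Grm3 on chromosome 5 (9485541 to 9725170), Grm4 on chromosome 17 (27422387 to 27521403) and Grm7 on chromosome 6 (110645581 to 111567230). An antisense gene, Gm20387, shares 130 bases of exon with Grm7 and had 182 counts over the 6 libraries, so with the strand setting of the counting not given in the sources used here a small part of Grm7 counts is uncertain. Gm28111, antisense to Grm2, had 0 counts.

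To show the sequence before the start of the receptor genes that differed most and least, the 250 bases before the RefSeq start (build GRCm38.p6) are printed for Grik3 and Grik5, which had the largest differences among kainate subunits, for Grik4, which had almost none, and for Grm7, the 1 window with the Npas4 core described next. Windows were found for 7 of the 10 genes. Capitals mark GGGCGG, the GC box bound by Sp1-type factors, on either strand, and in Grm7 also TCGTG, the core bound by Npas4 with its Arnt partner, which reads CACGA on the printed strand.
Grik3, chr4:125490446-125490695, plus strand: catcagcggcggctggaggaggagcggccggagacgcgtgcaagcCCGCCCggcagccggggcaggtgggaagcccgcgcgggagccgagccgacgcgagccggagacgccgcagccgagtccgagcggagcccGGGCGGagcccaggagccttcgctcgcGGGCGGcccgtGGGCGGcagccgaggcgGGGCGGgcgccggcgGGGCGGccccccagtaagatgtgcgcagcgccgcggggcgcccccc
Grik5, chr7:25072370-25072619, minus strand: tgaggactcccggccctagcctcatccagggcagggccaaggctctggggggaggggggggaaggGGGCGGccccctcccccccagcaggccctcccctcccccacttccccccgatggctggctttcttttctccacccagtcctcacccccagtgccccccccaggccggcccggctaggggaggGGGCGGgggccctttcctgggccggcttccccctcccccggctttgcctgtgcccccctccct
Grik4, chr9:42944372-42944621, minus strand: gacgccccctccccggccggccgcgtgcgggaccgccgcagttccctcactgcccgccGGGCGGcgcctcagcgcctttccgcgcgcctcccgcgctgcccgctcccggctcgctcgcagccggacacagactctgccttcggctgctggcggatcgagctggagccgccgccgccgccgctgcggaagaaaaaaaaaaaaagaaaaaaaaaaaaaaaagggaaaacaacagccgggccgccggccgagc
Grm7, chr6:110645262-110645511, plus strand: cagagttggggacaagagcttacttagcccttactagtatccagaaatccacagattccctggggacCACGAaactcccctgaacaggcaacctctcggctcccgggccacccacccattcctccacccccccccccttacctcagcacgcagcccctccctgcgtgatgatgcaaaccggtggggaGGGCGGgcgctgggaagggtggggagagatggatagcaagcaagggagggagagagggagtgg

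The Grik3 window held 6 GC boxes and was 82.0% G and C. Grik5 had 2 boxes at 75.2% and Grik4 had 1 at 69.6%. Among genes whose windows are not printed, Grm2 had 3 boxes at 71.2% and Grm3 had 1 at 62.4%. Grik2, which was lower at unadjusted p under 0.05, had 0 at 62.8%. Grm4 was among the genes without a window, and any relation of box number to the differences was not tested. The median G and C content of all 32841 windows of this length was 52.4%, and 32.7% of them hold a GC box on either strand. TCGTG was present in 1 of the windows of the 10 genes, that of Grm7 shown above, and in 13.3% of all windows, searched on both strands. Neither the cyclic AMP response element TGACGTCA (1.55% of all windows) nor the AP-1 site TGANTCA (6.75%), the EGR site GCGNGGGCG (4.70%) or TATAAA (12.4%) was found in any window of the 7 genes. These motifs were searched separately, and GC box and EGR letters can overlap. A match in a window is a description of letters only.

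Grm3 and Grm5 were the most abundant of the 10 genes in this cortex, and Grik1 and Grm4 the least. On a scale of CPM per kilobase of exon (all annotated exons of a gene joined, which lowers the value of genes with long rare exons), Grm3 stood at 71.5 ± 1.7 in wild type (mean ± SD, n = 3 per group here and below), Grm5 at 39.5 ± 2.2 and Grm7 at 17.6 ± 1.1. Next came Grm2 at 8.81 ± 3.33 and, last, Grm4 at 2.56 ± 0.77. No 2 neighbours in this order overlapped between their wild type libraries. Of the other family members Grm8 was at 5.56 ± 0.82, between Grm2 and Grm4. Grm6, the receptor of retinal ON bipolar cells, had 0 counts in all 6 libraries, which allows 0.137 to 0.238 CPM (3 counts per library).

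Within the kainate family, on the same per-kilobase scale, Grik3 (16.1 ± 4.7) and Grik5 (15.9 ± 3.9) led in wild type and could not be ordered, since their libraries overlapped. Grik2 followed at 7.83 ± 0.998, then Grik4 at 4.01 ± 0.73 and Grik1 at 2.26 ± 0.32, without overlap between these neighbours. In the duplication libraries Grik5 was at 10.7 ± 1.2 and Grik3 at 9.61 ± 1.97. Grik3, the low-affinity subunit, thus had the higher wild type mean and the lower duplication mean of the pair, in each group within the spread of the libraries.

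Between genotypes, several kainate subunits and Grm4 were lower in the duplication libraries, and the abundant metabotropic receptors Grm3 and Grm5 were at nearly the same level. None of the 10 genes passed the test over all genes (edgeR quasi-likelihood test, adjusted p under 0.05), where 0% of the 15398 genes tested were called. All 10 genes entered that test. At unadjusted p under 0.05, 4 were lower (Grik2, Grik3, Grik5 and Grm4) and 0 higher, against 12.2% of all genes lower and 7.05% higher. The median log2 fold change of the 10, duplication over wild type, was -0.30, against 0.0050 for all genes tested. It was below 0 for 8 of the 10, and for 49% of all genes. It was -0.37 for the 5 kainate subunits and -0.12 for the 5 metabotropic genes. The genes were chosen with earlier results of these data known, so these counts and medians describe them and are not a test of the family. In a homogenate, fewer cells of a type and less RNA per cell cannot be told apart.

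**Figure D1:**
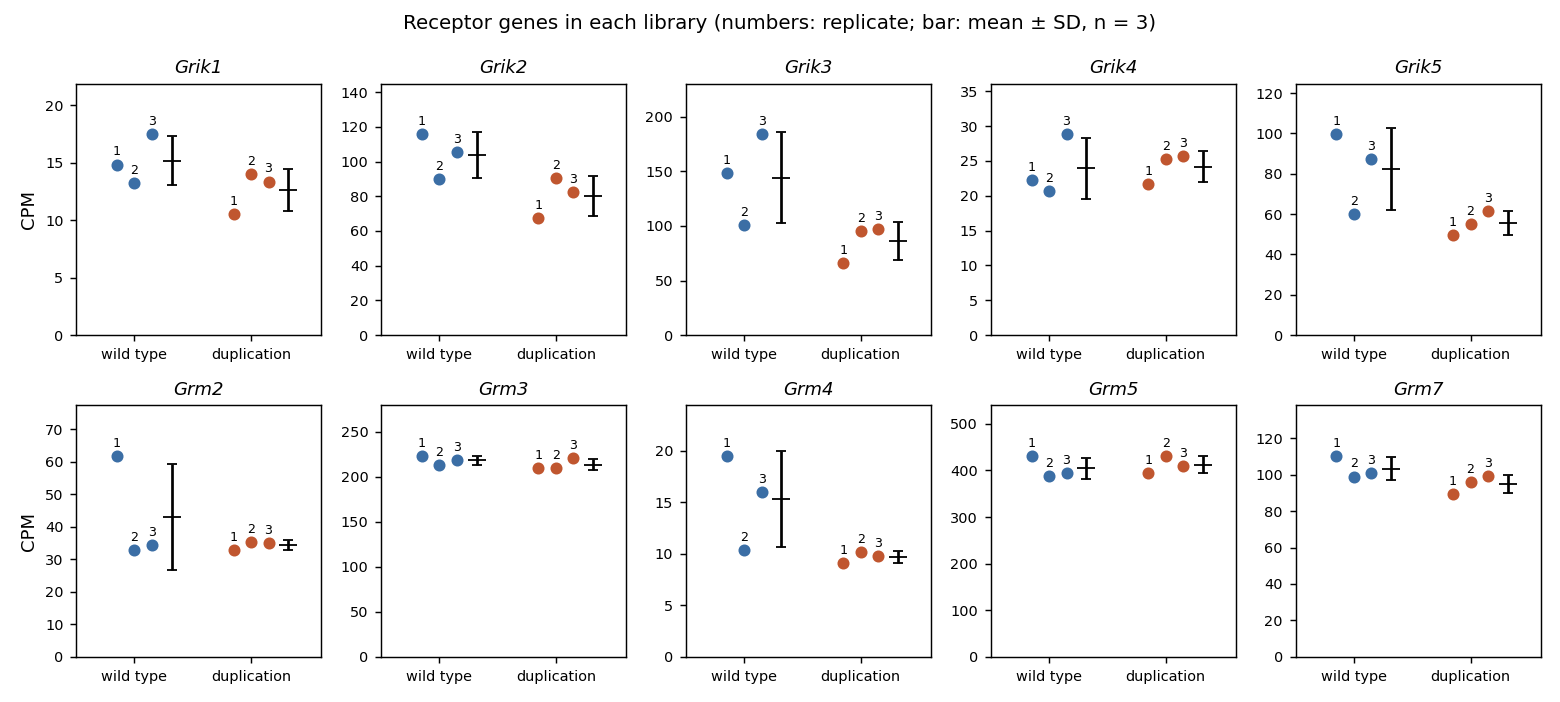
Level of each receptor gene in each library, in CPM on a vertical axis that starts at 0, with the replicate number beside each point and the mean ± SD of 3 libraries as a bar. Wild type replicates 1 and 3 are the highest 2 libraries for Grik2, Grik3, Grik5 and Grm4, while wild type replicate 2 sits near the duplication libraries.

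Grik3 had the largest difference among the receptors. By replicate number, here and for the genes that follow, it was measured at 148.2, 100.5 and 184.3 CPM in wild type libraries and at 65.8, 95.7 and 97.1 CPM in duplication libraries. All duplication libraries lay below all wild type libraries, but wild type replicate 2 was only slightly above duplication replicate 3. The log2 fold change was -0.75 ± 0.21 (SE), with a 95% interval of -1.23 to -0.26, a fold of 0.596 (edgeR, adjusted p = 0.174). Groups that do not overlap and are lower in the duplication were found for 2 of the 10 genes, Grik3 and Grm4, and for 10.5% of all genes tested.

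Grik5 encodes a high-affinity subunit that joins channels built on the low-affinity ones. Its values were 99.7, 59.9 and 87.3 CPM in wild type and 49.5, 55.3 and 61.5 CPM in the duplication. Duplication replicate 3 exceeded wild type replicate 2, so the groups overlapped. The log2 fold change was -0.57 ± 0.17 (edgeR, adjusted p = 0.174). With DESeq2 it was the 1 receptor gene called (-0.58, adjusted p = 0.0299), where 1.55% of genes were called lower and 0.299% higher.

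Grik2, the subunit found most widely in forebrain kainate receptors, was at 115.9, 89.7 and 105.6 CPM in wild type and 67.5, 90.3 and 82.4 CPM in the duplication. Wild type replicate 2 was below duplication replicate 2. Its log2 fold change was -0.37 ± 0.12 (edgeR, adjusted p = 0.179). Grik1, a subunit of interneurons, had few counts, 187 to 239 per library, and read 14.8, 13.2 and 17.5 CPM against 10.6, 14.0 and 13.4 CPM. These groups overlapped, and the log2 fold change was -0.27 ± 0.14 (edgeR, adjusted p = 0.323). It was -0.15 without duplication replicate 1 and -0.16 without wild type replicate 3.

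Grik4, the other high-affinity subunit, was at the same mean level in both groups. Wild type libraries gave 22.2, 20.7 and 28.9 CPM and duplication libraries 21.6, 25.3 and 25.7 CPM. The log2 fold change was 0.01 ± 0.13, with a 95% interval of -0.28 to 0.31 (edgeR, adjusted p = 0.967), which leaves out a difference as large as the -0.75 of Grik3.

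Grm4, a presynaptic group III receptor, was the least abundant of the metabotropic members, at 149 to 246 counts per library. It was at 19.5, 10.4 and 16.0 CPM in wild type and 9.09, 10.2 and 9.77 CPM in the duplication. The groups did not overlap, but wild type replicate 2 and duplication replicate 2 were nearly equal. Its log2 fold change was -0.66 ± 0.20, with a 95% interval of -1.11 to -0.21 (edgeR, adjusted p = 0.175).

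For the group II receptor Grm2, a presynaptic autoreceptor of cortical glutamate terminals, a single library set the wild type mean. Its levels were 61.9, 32.9 and 34.5 CPM in wild type and 32.8, 35.4 and 35.1 CPM in the duplication. Wild type replicate 1 stood far above the other 5 libraries. The log2 fold change was -0.32 ± 0.21 (edgeR, adjusted p = 0.419), and without wild type replicate 1 it was 0.03 ± 0.08.

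Grm3, Grm5 and Grm7 were measured with the smallest errors. Grm3, shared by neurons and astrocytes, read 223.2, 212.8 and 217.9 CPM in wild type and 209.8, 209.6 and 220.2 CPM in the duplication, a log2 fold change of -0.03 ± 0.06 (95% interval -0.16 to 0.09). Grm5, the main cortical group I receptor, read 430.6, 387.8 and 394.8 CPM against 394.8, 431.7 and 410.4 CPM, at 0.03 ± 0.06 (-0.12 to 0.17). The presynaptic active zone receptor Grm7 read 110.4, 99.0 and 100.7 CPM against 89.1, 96.2 and 99.3 CPM, at -0.12 ± 0.07 (-0.28 to 0.04). The groups overlapped for all 3 genes, and their intervals leave out a difference of the size seen for Grik3, Grik5 or Grm4.

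**Figure D2:**
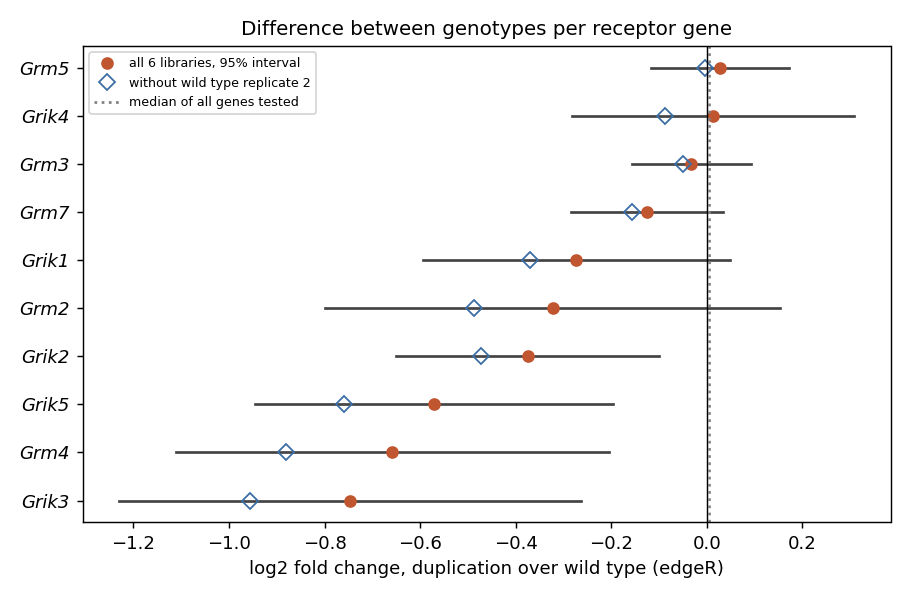
Log2 fold change of each receptor gene, duplication over wild type, from the edgeR fit with its 95% interval (circles and lines) and without wild type replicate 2 (open diamonds). The 4 genes whose intervals lie below 0 are Grik3, Grm4, Grik5 and Grik2, and their diamonds lie farther from 0.

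The differences of Grik2, Grik3, Grik5 and Grm4 were smaller without wild type replicate 1, wild type replicate 3 or duplication replicate 1. How much smaller varied with the gene. Without wild type replicate 1 they were at -0.29, -0.73, -0.41 and -0.45, in that order of genes. Leaving out wild type replicate 3 gave -0.36, -0.53, -0.53 and -0.62. Without duplication replicate 1 they shrank to -0.26, -0.58, -0.49 and -0.61, in that order of genes. Without wild type replicate 2, edgeR called 4 of the 10 genes as lower (Grik3 at -0.96, Grm4 at -0.88, Grik5 at -0.76 and Grik2 at -0.47, adjusted p of 0.0047, 0.0025, 0.0021 and 0.019), and it then called 10.7% of all genes as lower and 4.65% as higher. Wild type replicate 2 was singled out because it lay near the duplication libraries. Its removal therefore tends to widen differences by itself, and these calls are not independent support for them. Leaving out any other single library called 0 of the 10. Without a filter on low counts, 4 were called, again Grik2, Grik3, Grik5 and Grm4, with 3.19% of genes called lower and 0.655% higher.

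Wild type replicates 1 and 3 also stood out in another class of transcripts. Some transcripts of the annotation classes TEC (loci whose transcription awaits experimental proof) and sense intronic lie inside receptor genes on the same strand, such as Gm26543 in Grik2, which had 82 counts and shares no exon bases with it. The 292 of these classes that were tested were compared as mean log2 CPM minus its average across libraries. Wild type libraries gave 0.47, -0.00042 and 0.53 by replicate number. The duplication libraries gave -0.44, -0.43 and -0.12. Grik3 on that scale was at 0.44, -0.12 and 0.76 and at -0.73, -0.19 and -0.17, and Grik5 at 0.58, -0.15 and 0.39 and at -0.43, -0.27 and -0.12. With the TEC and sense intronic level as a covariate, Grik3 was at 0.17 ± 0.25, Grik5 at 0.19 ± 0.17 and Grm4 at 0.11 ± 0.30, Grik2 at -0.05 ± 0.20, and 0 of the 10 passed. That level follows genotype (r = -0.86 over the 6 libraries), and the fit left 3 residual degrees of freedom, so it cannot be told apart from genotype here.

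**Figure D3:**
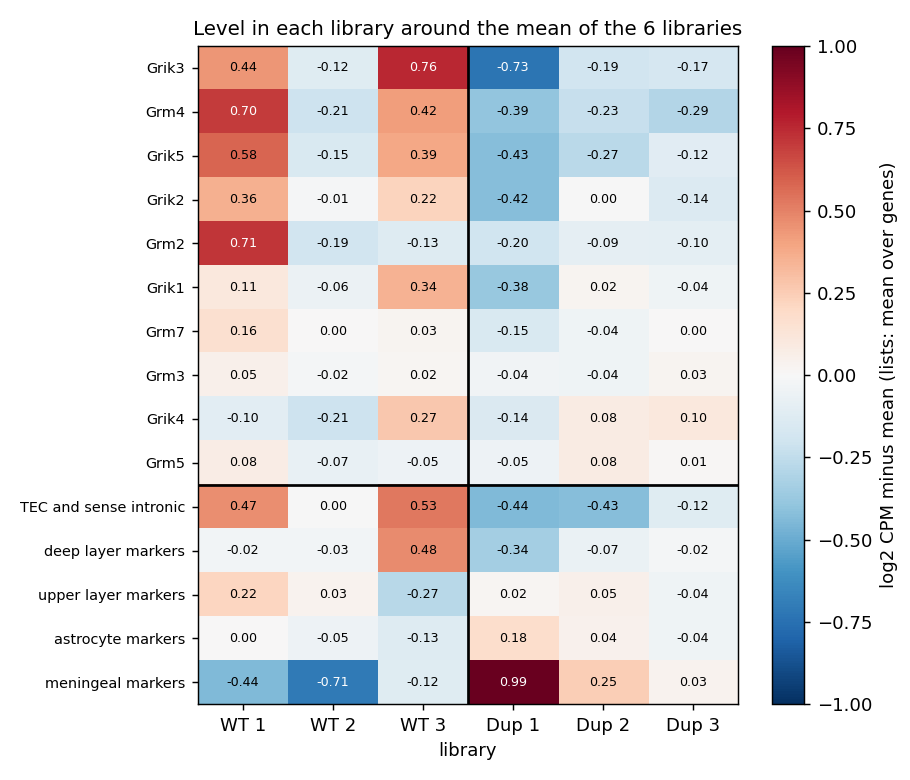
Level of each receptor gene (rows above the line, log2 CPM minus the mean of the 6 libraries) and of transcript and marker lists (rows below, mean over their genes) in each library. Grik3, Grm4 and Grik5 are above 0 in wild type replicates 1 and 3 and below 0 in the other 4 libraries, and TEC and sense intronic transcripts are likewise high in those 2.

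Markers of cortical cell types moved with some of these libraries. Deep layer neuron markers, 7 of 7 measured and led by Crym and Bcl11b, lay at -0.02, -0.03 and 0.48 in wild type and -0.34, -0.07 and -0.02 in the duplication, where their summed level was 338.1 to 405.7 CPM against 403.9 to 518.2 CPM in wild type. Wild type replicate 3, the highest library for Grik3, was also highest for these markers, and duplication replicate 1 was lowest for both. Upper layer markers (6 of 6, led by Mef2c and Rasgrf2) lay at 0.22, 0.03 and -0.27 and at 0.02, 0.05 and -0.04. Meningeal fibroblast markers (9 of 9, led by Col1a2 and Igf2) summed to 22.9 to 34.2 CPM in wild type and 34.3 to 69.6 CPM in the duplication, the most in duplication replicate 1. Astrocyte markers (8 of 8, led by Slc1a2 and Aldoc), relevant to Grm3, summed to 3719 to 3857 CPM in wild type and 3776 to 4056 CPM in the duplication. No marker of these lists was at 0 over all libraries. The part of cell composition in the receptor differences was not tested.

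Summed levels of the remaining marker lists overlapped between the groups, except for microglia. Excitatory neuron markers (7 of 7, led by Slc17a7 and Camk2a) summed to 2379 to 2913 CPM in wild type and 2379 to 2519 CPM in the duplication. Interneuron markers (8 of 8, led by Gad1 and Gad2) summed to 552.0 to 672.4 and 553.4 to 578.6 CPM, precursor markers (6 of 6, led by Pdgfra and Gpr17) to 155.7 to 165.4 and 156.3 to 161.1 CPM, and oligodendrocyte markers (7 of 7, Mbp among them) to 1353 to 2337 and 1213 to 1634 CPM. Endothelial and pericyte markers (7 of 7, led by Rgs5 and Flt1) summed to 178.6 to 194.6 and 187.6 to 220.2 CPM. Only the microglia list (7 of 7, Csf1r among them) did not overlap among these, at 306.6 to 347.7 and 349.9 to 365.7 CPM.

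The balance of kainate subunits, which does not depend on library scaling, was compared as each gene's share of its family. With 3 libraries against 3 the exact permutation test cannot pass 0.05, so the shares are a description. Grik3 made up 32.7%, 32% and 38.9% of the summed kainate level (CPM per kilobase) in wild type and 27.0%, 30.9% and 30.7% in the duplication, a difference of -5.00 percentage points in the means. The groups did not overlap, and the two-sided exact permutation test gave p = 0.1, the smallest it can give here. Grik4 made up 7.38%, 9.91% and 9.16% in wild type and 13.3%, 12.3% and 12.2% in the duplication, also without overlap. Its mean share was 8.82 ± 1.30% and 12.6 ± 0.6%, given without a test because it was singled out after its values were seen. Grik1 made up 4.37%, 5.62% and 4.93% in wild type and 5.77%, 6.03% and 5.65% in the duplication, likewise without overlap. Shares are parts of a fixed whole, so a share can rise because other members of the family fall. The level of Grik4 itself had a log2 fold change of 0.01 and that of Grik1 -0.27. The shares of Grik2 (17.3 ± 2.1% and 18.7 ± 1.1%) and Grik5 (34.4 ± 3.3% and 33.3 ± 2.1%) overlapped between the groups.

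Among all detected metabotropic receptors, Grm5 made up 25.3%, 25.6% and 25.1% of the summed level in wild type and 26.7%, 27.7% and 26.1% in the duplication. The means differed by 1.496 percentage points without overlap between groups, again at p = 0.1 in the exact permutation test. Grm7 made up 11.3%, 11.4% and 11.2% in wild type and 10.5%, 10.7% and 10.996% in the duplication, lower without overlap. Grm3 held the largest share in every library, 44.1% to 47.8%. Grm4 made up 1.63 ± 0.41% in wild type and 1.08 ± 0.04% in the duplication, also lower without overlap, with wild type replicate 2 at 1.17% and duplication replicate 2 at 1.12%. The shares of Grm2 and Grm3 overlapped.

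**Figure D4:**
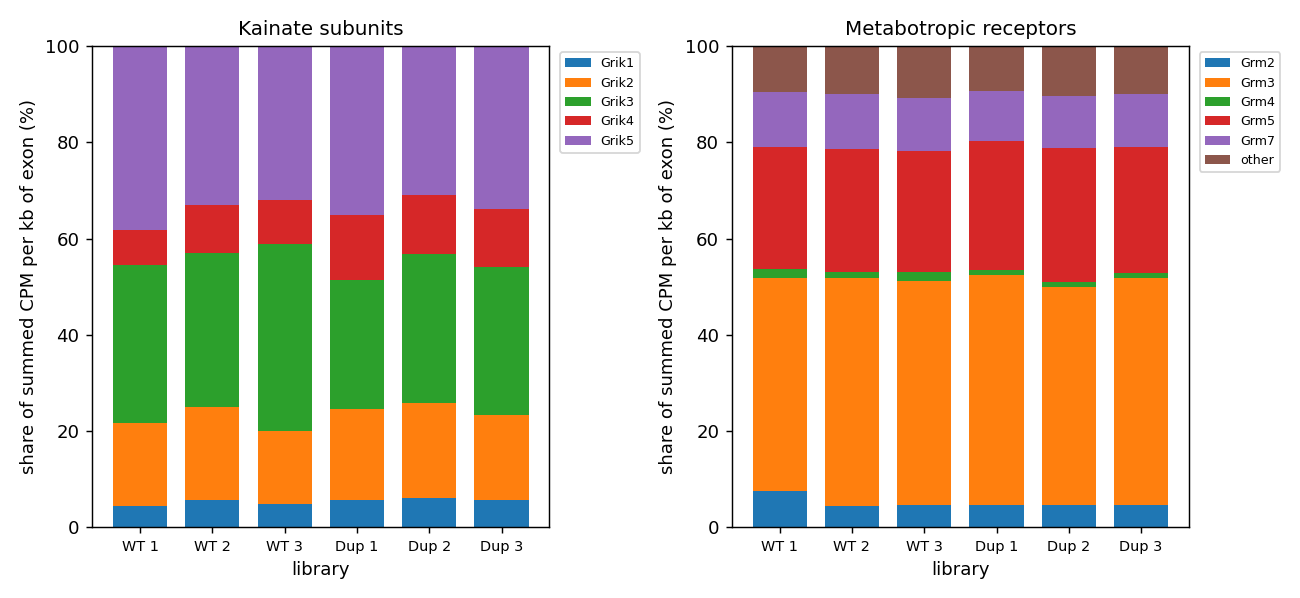
Share of each gene in the summed CPM per kilobase of exon of its family, in percent, for each library (3 wild type, 3 duplication). In the duplication libraries the Grik3 part is smaller (27.0% to 30.9%) and the Grik4 part larger (12.2% to 13.3%), and the metabotropic side, with receptors outside the 10 genes joined as other, is dominated by Grm3 and Grm5 throughout. A larger part of the whole need not mean a higher level of that gene.

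Among the genes whose levels followed Grik3 most closely over the 6 libraries were Madd, Hivep1, Ctnnal1 and Gpr63, with Pearson r from 0.9974 to 0.9999. Their log2 fold changes were -0.30, -0.59, -0.36 and -0.64. For Grik4, the gene with the largest p, they were RP23-425N12.2, Gm15900, Zfp157, Rnf122 and Ccdc84, with r from 0.973 to 0.997 and log2 fold changes between -0.06 and 0.02. These are the closest of all tested genes over only 6 libraries. In G and C content of the longest transcript, Grik5 (61.7%), Grm4 (61.7%) and Grm2 (56.9%) were among the tested genes of highest content (above 55.4%), and Grik2 (37.9%) and Grm5 (42.5%) among those of lowest content (below 43.6%). Across all 14587 genes with a value, Pearson's r of that content and the log2 fold change was 0.05. Over the 10 receptor genes it was -0.57, given as a description of 10 genes from the same libraries. The part of base composition in the receptor differences was not tested.

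Transcripts of genes for the supply of the ligands differed in both directions, and the ligands themselves were not measured. Of 12 genes that make, load or clear glutamate and the peptide NAAG, an agonist of Grm3, 0 passed over all genes, and at unadjusted p under 0.05 1 was higher and 1 lower, with a median log2 fold change of 0.0037. The shares over all genes tested were 7.05% higher and 12.2% lower. The cystine-glutamate exchanger Slc7a11 was at 81.0 ± 7.6 CPM in wild type and 101.1 ± 12.8 in the duplication (0.32 ± 0.10). Folh1, the enzyme that cleaves NAAG, was at -0.36 ± 0.14, and the astrocyte glutamate transporter Slc1a3 at 0.18 ± 0.08.

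Partners of the receptors gave a mixed picture. Of 9 tested kainate receptor partners 0 passed and 2 were lower at unadjusted p under 0.05, with a median of -0.07: the scaffold Grip2 at -0.34 ± 0.12 and the auxiliary subunit Neto1 at -0.34 ± 0.14. Grip1 was at -0.17 ± 0.08. C1ql2 had too few counts to be tested. Among 12 partners of metabotropic receptors 0 passed and 3 were lower in that sense, the scaffolds Shank1 (-0.71 ± 0.25) and Shank2 (-0.27 ± 0.10) and Elfn1 (-0.33 ± 0.14), which recruits Grm7 across the synapse. The median of the 12 was -0.00018. For both partner lists, the share of all genes tested that was lower in that sense was 12.2%.

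Downstream, 0 of 12 Gq pathway genes of group I receptors passed and 1 was lower at unadjusted p under 0.05 (median -0.05), the endocannabinoid-producing lipase Dagla at -0.43 ± 0.12. Gnaq, the G protein subunit itself, was at -0.20 ± 0.09. Of 16 Gi/o pathway genes 0 passed, with 2 higher and 4 lower at unadjusted p under 0.05 and a median of 0.02. Over all genes tested, 7.05% were higher and 12.2% lower in that sense. The inhibitory G protein subunit Gnai1 was at 0.18 ± 0.06, the protein kinase A subunit Prkacb at 0.15 ± 0.05 and the adenylyl cyclase Adcy8 at -0.21 ± 0.08.

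Among the other glutamate receptor genes, Grm8 was at -0.02 ± 0.12. Of 12 tested AMPA, NMDA and delta receptor genes 0 passed and 3 were lower at unadjusted p under 0.05 (12.2% of all genes were), with a median of -0.15, among them the NMDA subunits Grin2b (-0.73 ± 0.23) and Grin1 (-0.29 ± 0.10). Set beside these lists, the 10 kainate and metabotropic genes had the lowest median, which describes the lists and was not tested.

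**Figure D5:**
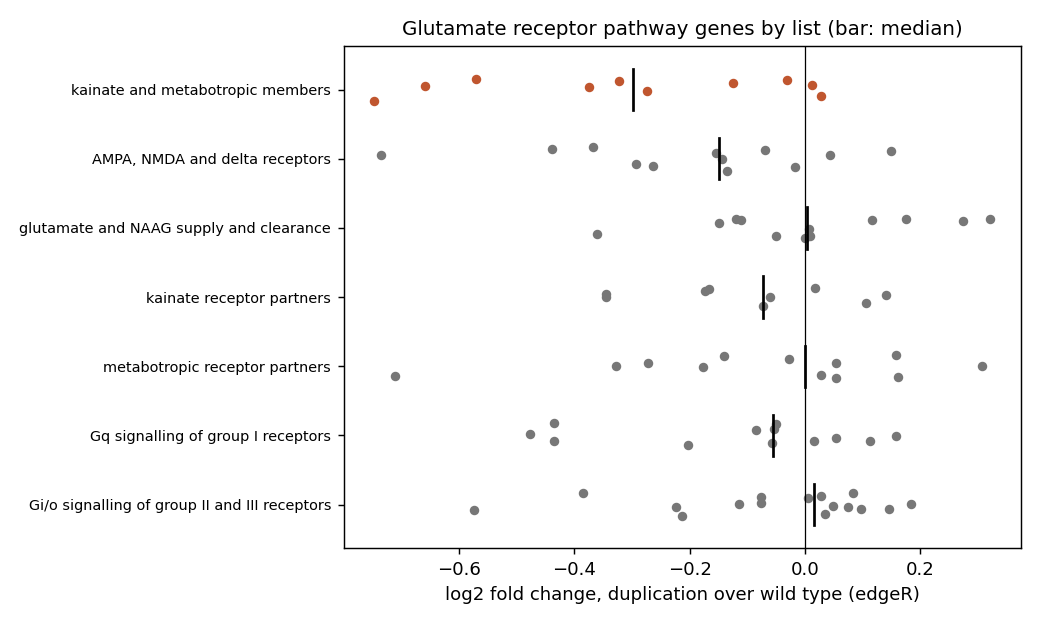
Log2 fold change (duplication over wild type, edgeR) of each tested gene in the glutamate receptor and signalling lists, with the list median as a bar. The kainate and metabotropic members spread from -0.75 to 0.03 around a median of -0.30, and the medians of the other lists lie between -0.15 and 0.02.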

How the data were processed

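Receptor genes and pathway lists were chosen with earlier results of these data known. Trizol RNA went into Illumina TruSeq stranded libraries after Ribo-Zero depletion, per the labels' protocols. The authors deposited raw counts per gene made with cutadapt, TopHat2 and HTSeq on mm10, per the submitters' processing notes; their versions, the annotation and the strand setting were not given in the sources used here. All 274806 values of the per-library tables equal those of the joint table.

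The joint table has 45807 lines and 45801 names, and 65.1% of names lag their counts by 1 to 6 lines. Names were moved by that offset. Names within 25 lines of a step and 25 names turned into date numbers were left out, with 0.909% to 0.954% of counts, leaving 45470 names. Of these, 91.9% were found in GENCODE M21.

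Genes were tested with edgeR 4.0.16 in R 4.3.3 (TMM, filterByExpr, quasi-likelihood F-test, Benjamini-Hochberg over 15398 genes, threshold 0.05). SE is the log2 fold change over the root of F. Log2 CPM used a prior count of 2. The fit was tested on simulated data for 15398 genes, 200 of them set to change, and scored on those that passed its filter. It found 56.7% of the 97 such genes changed 1.5-fold and 79.4% of the 97 changed 2-fold, with 1 false call. The simulated counts varied independently, without a pattern shared across genes within a library, so these percentages do not give the power in the real libraries. There 0 of the 15398 genes passed, and the 24 duplicated interval genes were thus not called either. DESeq2 1.42.0 and limma-voom (limma 3.58.1) were alternatives, with other factors and filters, a replicate block, left-out libraries, names as deposited and a covariate. Named genes were the 10 receptors, the 3 smallest p of each other list, the 5 genes most like Grik3 and Grik4, and the 2 most abundant markers of each marker list; some genes that this rule names are not reported here. The planned protein comparison was not run.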

Additional observations from a re-analysis of the deposited data

How the results depend on the processing

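No receptor gene passed in edgeR with all libraries, and 4 of the 10 had an unadjusted p under 0.05. DESeq2 called 1 of them, and 46 genes higher and 239 lower in all. Limma-voom called 0 receptors. Without a filter on low counts the figures were 4, 173 and 843. A fit blocked on replicate number (replicate block) gave 0 receptors, 6 genes higher and 1 lower. Whether equal numbers pair the samples could not be decided with so few libraries. Deviations of equal numbers correlated at 0.102, 0.0629 and 0.311, and those of unequal numbers at -0.28 to 0.16. Not every library correlated best with its own number. Leaving out each library gave 0 to 4 receptors, 0 to 730 genes higher and 0 to 1676 lower, with everything above 0 coming from the fit without wild type replicate 2, and receptor medians of -0.42 to -0.18. With the TEC and sense intronic level as a covariate the median was 0.11, and Grik1 (0.12), Grik3 (0.17), Grik5 (0.19), Grm2 (0.17), Grm3 (0.056), Grm4 (0.11) and Grm7 (0.013) turned positive, none past the threshold. In fits that left out 1 library, Grik4 ranged from -0.088 to 0.17 (-0.036 without wild type replicate 1), Grm2 from -0.49 to 0.029 and Grm5 from -0.0047 to 0.075. Names as deposited gave Grm7 0.068 on counts of another gene, and only 4 receptors could then be tested. Beside these, the cause of each change was not tested. Of 154 single-gene values under the alternatives, 130 kept direction and side of the threshold, 9 passed it and 15 changed sign. Depth limits Grik1 and Grm4 most.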
